A study of Mus musculus with 6 samples.

Results

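Apical membrane sorting was examined here through 8 genes: the proteolipid genes Mal and Mal2, the myosin genes Myo1a and Myo5b, the small GTPase genes Rab11a and Rab8a, the t-SNARE gene Stx3 and its partner Stxbp2. They were chosen by name around Mal, with the difference in log2 signal between HDAC3ΔIEC and HDAC3FF already known, and each is represented by its brightest probe set on average over the 6 arrays. All 8 were found among the 19533 genes that have a probe set naming 1 gene only, and each of the 8 has 1 such probe set. Because the contrast itself was in view when the genes were listed, their differences between the groups are given as a description, without a test of each gene.

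The RNA came from live, EpCAM-positive epithelial cells of the large intestine of C57BL/6 mice. All mice were germ-free, that is, free of microbiota. The control group, HDAC3FF, carried floxed Hdac3 alleles (3 biological replicates), and the HDAC3ΔIEC group lacked Hdac3 in intestinal epithelial cells (3 biological replicates). Each replicate gave 1 Affymetrix array; whether a replicate was 1 mouse or a pool is not stated. The promoter that drives the deletion, the age and the sex of the mice are not stated in the labels.

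Epithelial cells keep an apical face toward the gut lumen and a basolateral face toward the tissue, and newly made membrane proteins have to be delivered to the right one. MAL is a small proteolipid with membrane-spanning segments that resides in lipid rafts and is known from kidney epithelial cells as part of the raft route to the apical surface. A second route passes through recycling endosomes, where RAB11A and RAB8A recruit the motor myosin Vb, and ends with fusion at the apical membrane by syntaxin 3 and its chaperone MUNC18-2, the product of Stxbp2. Loss of MYO5B, STX3 or STXBP2 function in humans is known to cause microvillus inclusion disease or related enteropathy.

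Mal was the 1 gene of the 8 that stood far apart between the groups, and its paralogue Mall lies next to it on the chromosome. The sequences around both start sites are shown for that reason, from 250 bases before to 50 bases after the start, 5′ to 3′ along each gene, with every CG dinucleotide in capitals. They were taken from RefSeq, build GRCm38.p6. The Mal window is chr2:127656646-127656945 on the minus strand and the Mall window chr2:127729848-127730147, also on the minus strand.
Mal: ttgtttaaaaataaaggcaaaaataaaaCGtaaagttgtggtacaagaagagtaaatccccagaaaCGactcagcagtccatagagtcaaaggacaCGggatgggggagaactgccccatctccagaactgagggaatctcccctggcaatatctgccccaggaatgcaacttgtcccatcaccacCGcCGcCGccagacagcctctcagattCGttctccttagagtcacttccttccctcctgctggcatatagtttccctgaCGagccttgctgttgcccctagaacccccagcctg
Mall: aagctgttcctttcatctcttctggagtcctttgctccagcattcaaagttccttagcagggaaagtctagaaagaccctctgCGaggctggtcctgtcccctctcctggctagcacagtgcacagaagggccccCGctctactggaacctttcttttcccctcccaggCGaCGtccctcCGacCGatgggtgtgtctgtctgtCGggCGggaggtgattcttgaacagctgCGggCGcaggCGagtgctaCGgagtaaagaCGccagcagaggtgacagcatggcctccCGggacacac
The Mal window held 8 CG dinucleotides and a G and C content of 51.0%, and the Mall window 14 and 58.7%, beside a median of 7 over 32851 windows of the same length. RefSeq windows were matched for 6 of the 8 genes, Mal2 and Myo5b being without one. The number of CG dinucleotides was 2 for Myo1a, 8 for Stx3, 16 for Rab11a, 22 for Stxbp2 and 23 for Rab8a, so Mal lay in the lower part of this range together with Stx3 and Myo1a. Both strands of each window were searched for the TATA box letters TATAAA (in 13.6% of the 32851 windows), the CCAAT box letters CCAAT (37.4%), the GC box letters GGGCGG (35.7%), the letters TTTATG bound by the intestinal CDX factors (11.9%) and the letters CAAAGTCCA bound by HNF4 (0.475%). None of these was present in the Mal window, while the Mall window held GGGCGG at 1 place and the Stx3 window TATAAA at 1 place. Rab11a had GGGCGG at 3 places and CCAAT at 1, and Rab8a had CCAAT at 2, with no overlap between matches of different motifs.

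Over all genes, the medians of the arrays lay between 5.30 and 5.35 on the log2 scale. Hdac3, the targeted gene, read 6.96, 7.36 and 7.04 on the control arrays and 6.58, 6.22 and 6.00 on the HDAC3ΔIEC arrays. The groups did not overlap. The difference of -0.86 ± 0.17 (SE) missed the threshold used throughout, an adjusted p under 0.05 over all genes (limma adjusted p = 0.0937). Probes that lie outside the deleted part, which its probe set may contain, would not show the loss. Where its probes lie was not examined, and the source of the remaining signal was not tested. The 14 epithelial marker genes were all above the median of all genes, among them Krt8, Car1 and Epcam. All 17 T and NK cell genes were below it. Control replicate 3 was the highest control array for 39.2% of all genes and for 6 of the 8 sorting genes. HDAC3ΔIEC replicate 3 was the highest of its group for 42.1% of all genes but for 1 of the 8, and replicate 2 was the highest for 5 of the 8.

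Mal was lower in HDAC3ΔIEC on every array. Its log2 signal was 9.23, 8.89 and 9.68 on the HDAC3FF arrays and 7.59, 6.51 and 6.71 on the HDAC3ΔIEC arrays. The groups did not overlap: the highest HDAC3ΔIEC value lay 1.30 under the lowest control. The means were 9.27 ± 0.40 and 6.94 ± 0.57 (SD, n = 3 each), a log2 difference of -2.33 ± 0.31 (limma's moderated SE), which leaves 19.9% of the control level. No gene among the 19533 had a larger decrease, and 15 had an increase of at least the same size. Without any 1 array the difference ran from -2.66 to -2.12. In bulk RNA, fewer cells that express a gene and less of its RNA per cell cannot be told apart.

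Mal2, the paralogue known from transcytosis to the apical surface in liver cells, read 10.62, 10.74 and 10.55 in HDAC3FF and 10.72, 10.81 and 10.72 in HDAC3ΔIEC. The groups overlapped, since control replicate 2 lay above HDAC3ΔIEC replicates 1 and 3. The log2 difference was 0.11 ± 0.09 (SE), and all 6 values fell within 0.26 of each other. The proteolipid pair therefore gave differences of opposite sign and unlike size; whether the change of Mal differed from that of Mal2 was not tested.

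**Figure D1:**
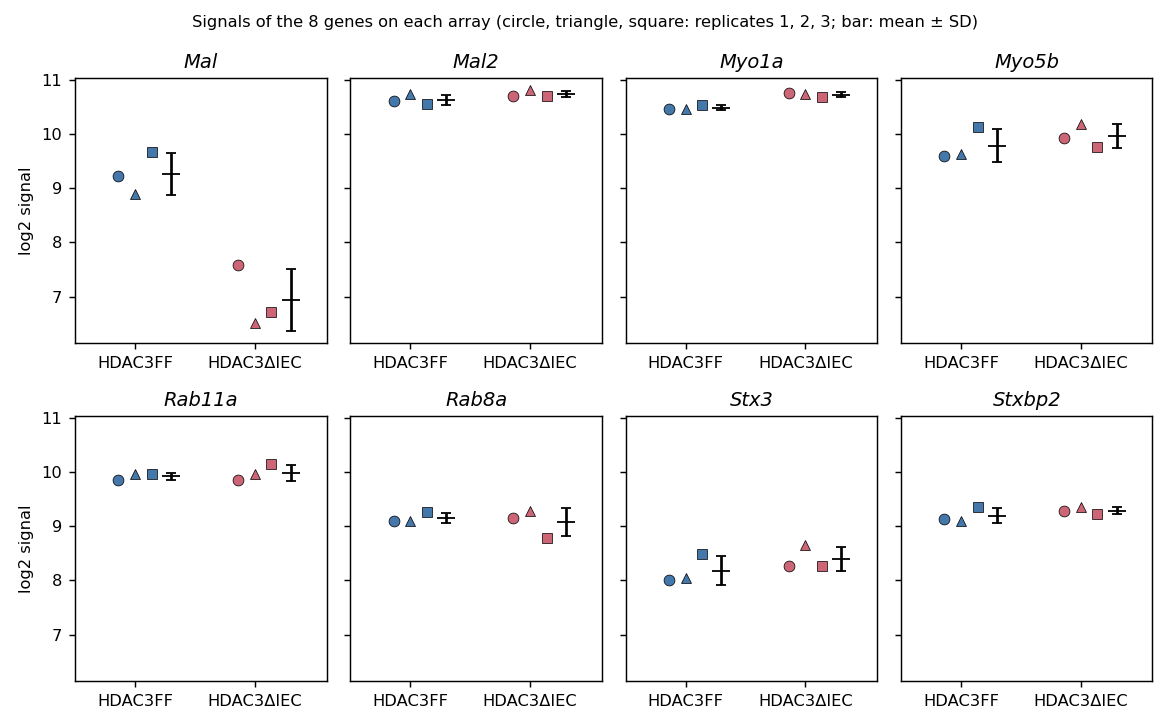
Log2 signal (y axis, shared) of each of the 8 sorting genes on every array, by group (x axis); circles, triangles and squares are replicates 1, 2 and 3, and the bars give the mean ± SD of 3 arrays. The Mal values of HDAC3ΔIEC lie at 6.51 to 7.59, under the 8.89 to 9.68 of the controls, while the other 7 genes span no more than 0.64 over all 6 arrays.

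Myo1a encodes the brush border myosin that ties the actin core of the microvillus to its membrane. Its signal was 10.47, 10.47 and 10.55 in HDAC3FF and 10.77, 10.75 and 10.69 in HDAC3ΔIEC. These groups did not overlap either, though the gap between them was only 0.14. The log2 difference was 0.24 ± 0.08 (SE), or 118% of the control level, with an SD of 0.05 in HDAC3FF and 0.04 in HDAC3ΔIEC (n = 3 each).

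Myo5b, the recycling endosome motor, read 9.60, 9.64 and 10.14 in HDAC3FF and 9.94, 10.20 and 9.76 in HDAC3ΔIEC. Control replicate 3 lay above HDAC3ΔIEC replicates 1 and 3, so the groups overlapped. The difference was 0.17 ± 0.18 (SE), and it was 0.35 without control replicate 3 and 0.06 without HDAC3ΔIEC replicate 2.

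The GTPase genes showed the smallest differences of the 8. Rab11a, which marks the apical recycling endosome, read 9.85, 9.96 and 9.96 in HDAC3FF and 9.86, 9.97 and 10.15 in HDAC3ΔIEC, with a difference of 0.07 ± 0.10 (SE). The groups overlapped, and HDAC3ΔIEC replicate 3 was the highest array. Rab8a, which acts in the last steps of apical delivery, read 9.10, 9.10 and 9.26 against 9.16, 9.28 and 8.79, a difference of -0.08 ± 0.14. HDAC3ΔIEC replicate 3 was the lowest array for Rab8a, and without it the difference was 0.07 instead.

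Stx3, the t-SNARE of the apical membrane, gave 8.004, 8.04 and 8.49 in HDAC3FF and 8.28, 8.65 and 8.27 in HDAC3ΔIEC. Control replicate 3 lay inside the HDAC3ΔIEC values, and the difference of 0.22 ± 0.17 (SE) was 0.37 without that array and 0.09 without HDAC3ΔIEC replicate 2. Stxbp2, which encodes the protein that binds syntaxin 3 and readies it for fusion, read 9.13, 9.10 and 9.35 against 9.29, 9.36 and 9.24. Again control replicate 3 lay among the HDAC3ΔIEC values, with a difference of 0.10 ± 0.10. Myo5b, Rab8a, Stx3 and Stxbp2 had the same arrays at the top, control replicate 3 in one group and HDAC3ΔIEC replicate 2 in the other.

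Values without overlap were seen for 1 of the 8 genes on the lower side, Mal (7.7% of all genes), and for 1 on the higher side, Myo1a (8.45% of all genes). Since the comparison was in view when the genes were listed, nothing is read from these counts. Of the 8 differences 6 were positive, with a median of 0.10, beside 0.01 over all genes.

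Other genes of the route were taken from 11 lists of the sorting machinery and its cargo, with 255 entries, of which 245 were measured, 3 share a probe set with another gene and 7 were not analysed here. Of the 237 measured genes beyond the 8, limma called 1 higher and 2 lower, or 1.27%, and 234 did not pass. Over all genes it called 0.701%, with 0.369% higher and 0.333% lower. The median log2 difference of the 237 was 0.00. An unadjusted p under 0.05 was found for 45 of them (19.0%), beside 11.2% of all genes. Groups without overlap numbered 22 on the higher side (9.28%, beside 8.45% of all genes) and 27 on the lower side (11.4%, beside 7.7%), where 16.2% of all genes had no overlap in either direction. The number of calls was 9 without control replicate 3, where 430 genes were called over all genes instead of 137. It was 1 without control replicate 1, control replicate 2 or HDAC3ΔIEC replicate 2, where 13, 46 and 14 were called over all genes.

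MAL belongs to a family that shares the MARVEL domain, a bundle of membrane-spanning helices, with plasmolipin, the CMTM proteins, occludin and the synaptophysins. Of the 23 measured relatives beyond Mal and Mal2, limma called 0, beside 0.701% of all genes. An unadjusted p under 0.05 was found for 4 (17.4%, beside 11.2% of all genes). The median difference of the 23 was 0.00, with a range from -1.28 to 0.31.

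Cmtm8, which encodes a CMTM protein known to affect EGF receptor levels at the surface, read 8.46, 8.96 and 9.08 in HDAC3FF and 7.49, 7.26 and 7.90 in HDAC3ΔIEC. The groups did not overlap, with a difference of -1.28 ± 0.21 (SE) that missed the threshold (limma adjusted p = 0.0554). Syp, the synaptic vesicle gene that endocrine cells also express, had 0.31 ± 0.08 (limma adjusted p = 0.181) and values without overlap. Pllp and Cmtm7, looked up after their values were seen, read lower on every HDAC3ΔIEC array than on any control array. With Cmtm8 they made up the 3 of 23 relatives without overlap on the lower side (13.0%, beside 7.7% of all genes). On the higher side Syp was the only 1 (4.35%, beside 8.45% of all genes). Plasmolipin (Pllp), a proteolipid of myelin and of apical endosomes, had a difference of -0.81 ± 0.26 and Cmtm7 one of -0.61 ± 0.17 (limma adjusted p = 0.272 and 0.191). Plp2 and Ocln, the occludin gene, were also looked up after the values were seen and had differences of -0.04 ± 0.15 and -0.03 ± 0.24.

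**Figure D2:**
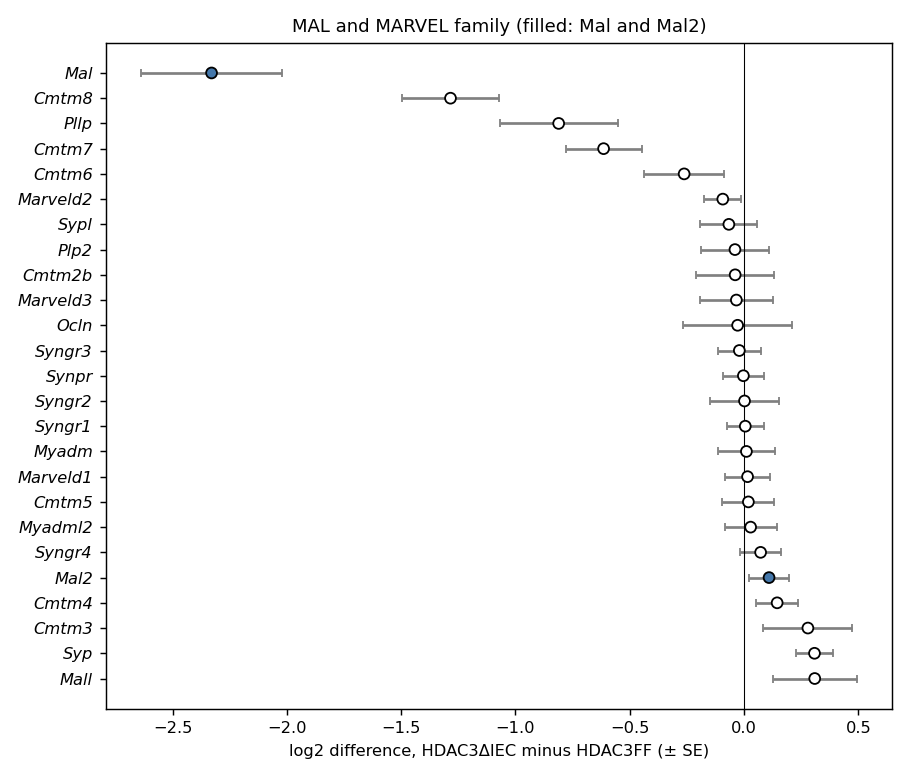
Log2 difference, HDAC3ΔIEC minus HDAC3FF, with limma's SE (x axis) for the 25 measured MAL and MARVEL family genes (y axis, ordered by value); filled points are Mal and Mal2. Mal stands at -2.33, Cmtm8, Pllp and Cmtm7 follow at -1.28, -0.81 and -0.61, and the other points lie between -0.26 and 0.31.

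The neighbours of Mal were looked up after its value was seen: the 5 nearest measured genes on each side in the RefSeq gene order of GRCm38.p6. Limma called 0 of these 10, beside 0.701% of all genes. None had an unadjusted p under 0.05, beside 11.2% of all genes. The differences of the 10 ran from -0.16 for Kcnip3 to 0.42 for Mrps5. Mall, the paralogue directly beside Mal, encodes a MAL-like protein of rafts. It read 11.02, 11.27 and 11.73 in HDAC3FF and 11.67, 11.80 and 11.49 in HDAC3ΔIEC. The groups overlapped at control replicate 3, with a difference of 0.31 ± 0.18 (SE, limma adjusted p = 0.628). Of the 10 neighbours 4 had control means under 5, below the array medians, where a decrease could hardly show: Kcnip3 at 4.28, Acoxl at 4.39, Prom2 at 4.49 and Zfp661 at 4.84. Whether the change of Mal differed from those of its neighbours was not tested.

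**Figure D3:**
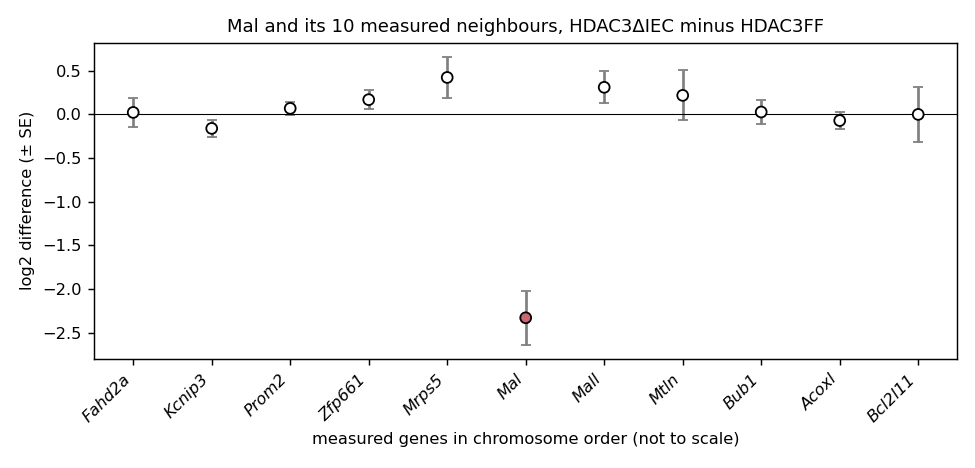
Log2 difference, HDAC3ΔIEC minus HDAC3FF, ± limma's SE (y axis) for Mal (filled) and the 5 measured genes on either side, in chromosome order (x axis, not to scale). The neighbours lie between -0.16 and 0.42 and Mal at -2.33.

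Of the 27 measured genes of sphingolipid synthesis and rafts, the membrane domain in which MAL resides, limma called 1 lower and none higher. The share of 3.7% rests on 1 gene and stands beside 0.333% of all genes called lower. That gene was St3gal5, the synthase of the ganglioside GM3: 8.35, 8.34 and 7.80 in HDAC3FF against 7.07, 6.35 and 6.57 in HDAC3ΔIEC. Its log2 fold change was -1.50 ± 0.22 (SE, limma adjusted p = 0.0405), and it was called without control replicate 3 or HDAC3ΔIEC replicate 1 but not without any other array (limma adjusted p = 0.0144 to 0.166). Values without overlap were seen for 4 of the 27 on the higher side (14.8%, beside 8.45% of all genes). On the lower side there were 3 (11.1%, beside 7.7%), St3gal5 included. The largest differences among those not called, looked up after the values were seen, were those of the ceramide synthase gene Cers4, at -1.36 ± 0.26, and of the lactosylceramide synthase gene B4galt5, at 0.80 ± 0.21 (limma adjusted p = 0.0793 and 0.177).

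Among 17 lectin, annexin and carrier genes limma called 1 lower and none higher. The share of 5.88% rests on this 1 gene and stands beside 0.333% of all genes called lower. Anxa13, an annexin of which a splice form is known from raft transport to the apical surface, read 7.59, 7.49 and 7.02 in HDAC3FF and 6.06, 5.55 and 5.14 in HDAC3ΔIEC (-1.78 ± 0.25, SE, limma adjusted p = 0.0356). Like St3gal5 it was called without control replicate 3 or HDAC3ΔIEC replicate 1 only (limma adjusted p = 0.0168 to 0.166 with arrays left out). The galectin genes Lgals4 and Lgals3, whose lectins cross-link apical glycoproteins and were looked up after the fact, had differences of -0.05 ± 0.11 and 0.25 ± 0.09, neither past the threshold. Plekha8, which encodes the glycolipid carrier FAPP2 of apical transport and was also looked up after the values were seen, had 0.50 ± 0.11 (limma adjusted p = 0.114).

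The machinery of the recycling endosome route had no call. With 0.701% of all genes called, little can be read from 0 calls in lists of this size. Limma called 0 of 29 Rab and effector genes beyond Rab11a and Rab8a. Of these, 7 had an unadjusted p under 0.05 (24.1%, beside 11.2% of all genes). The smallest p were those of the synaptotagmin-like gene Sytl1 (-0.36 ± 0.09, SE) and of Mical3 (0.25 ± 0.08). Of 11 other myosins limma called 0, with none at an unadjusted p under 0.05, led by Myo1c (0.21 ± 0.14) and Myo1f (-0.12 ± 0.09). Of 38 other SNARE and SM protein genes it called 0, with 6 at an unadjusted p under 0.05 (15.8%). They were led by the autophagosomal syntaxin Stx17 (-0.51 ± 0.11) and by Vps45 (0.36 ± 0.08). Of 9 exocyst subunits, which tether vesicles to the membrane, it called 0, with none at an unadjusted p under 0.05, led by Exoc3 (-0.16 ± 0.13) and Exoc6b (-0.16 ± 0.14).

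Limma called 1 of the 30 measured apical cargo genes higher (3.33%, beside 0.369% of all genes) and none lower. An unadjusted p under 0.05 was found for 12 (40%, beside 11.2% of all genes). Slc9a3, the apical sodium-proton exchanger NHE3, read 9.41, 9.56 and 9.60 in HDAC3FF and 11.25, 11.39 and 11.26 in HDAC3ΔIEC (1.78 ± 0.09, SE, limma adjusted p = 0.000645) and was called without each array in turn. The list's median was -0.12. Beside 0.701% of all genes, limma called 0 of 17 microvillus genes, with none at an unadjusted p under 0.05 (Baiap2l2 -0.29 ± 0.13, Ezr 0.52 ± 0.24). It called 0 of 19 polarity genes, with 3 at an unadjusted p under 0.05 (15.8%). The atypical protein kinase C genes Prkci and Prkcz had -0.35 ± 0.09 and -0.38 ± 0.10. Of 17 basolateral sorting and cargo genes limma called 0, with 1 (5.88%) at an unadjusted p under 0.05 (Ap1s3 0.50 ± 0.15, Ap1g2 0.23 ± 0.10).

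**Figure D4:**
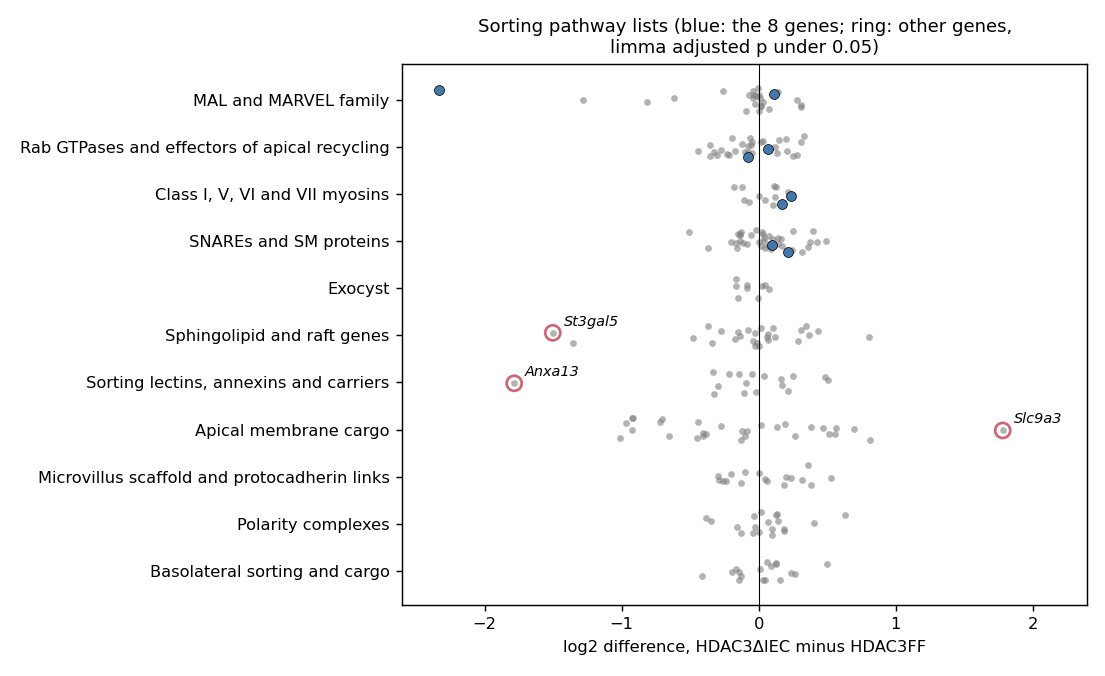
Log2 difference, HDAC3ΔIEC minus HDAC3FF (x axis), of every measured gene in the 11 sorting lists (y axis; points are spread vertically for sight); blue points are the 8 genes and rings mark other genes with a limma adjusted p under 0.05. Rings surround St3gal5, Anxa13 and, on the higher side, Slc9a3.

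The genes whose pattern was most like that of Mal were sought by the root-mean-square difference between log2 profiles centred on their mean over the 6 arrays, leaving out predicted genes. The 5 closest were Calcb at 0.35, Slc10a2 at 0.37, Fgfr2 at 0.38, Ephx2 at 0.39 and Thbs1 at 0.39. They encode, in that order, a calcitonin gene-related peptide, the apical sodium-dependent bile acid transporter, an FGF receptor, the soluble epoxide hydrolase and thrombospondin 1. In all 5, as in Mal, every HDAC3ΔIEC value lay under every control value, and control replicate 3 was the highest array. Calcb and Slc10a2 did not pass the threshold (limma adjusted p = 0.0793 and 0.0807). Slc10a2, another apical protein, read 10.85, 10.26 and 11.19 against 9.74, 8.92 and 8.75. HDAC3ΔIEC replicate 1 was the highest of its group in Mal, Slc10a2, Fgfr2, Ephx2, Thbs1 and Calcb alike. The genes were picked by likeness to Mal over these same arrays. Such shared traits follow largely from that choice, and nothing is read from them. Ranked by Pearson's correlation over the 6 arrays instead, among genes with a range of at least 1, 3 of the 5 stayed among the closest.

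**Figure D5:**
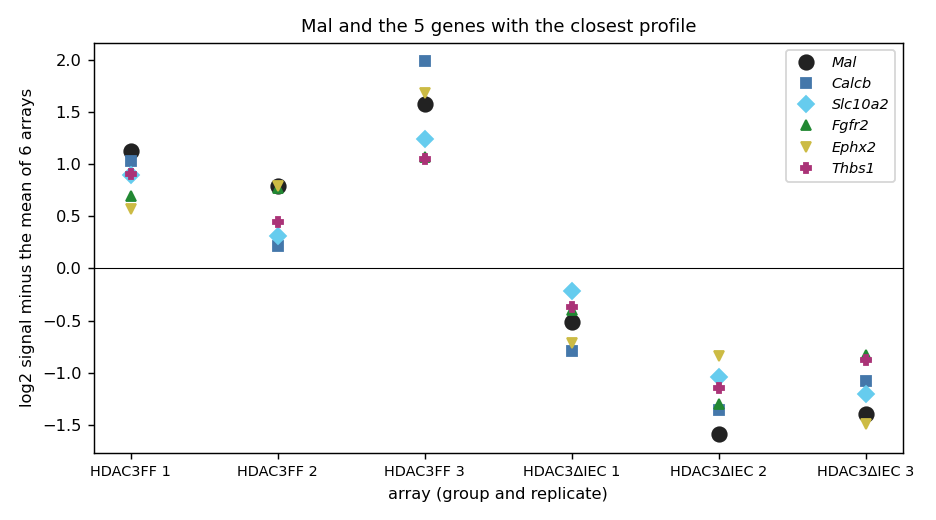
Log2 signal minus each gene's mean over 6 arrays (y axis) on every array (x axis) for Mal and the 5 genes with the smallest root-mean-square difference to it, 0.35 to 0.39. All 6 genes lie above 0 on the control arrays and below 0 on the HDAC3ΔIEC arrays, which the choice by likeness to Mal favours.

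MAL is also known from T lymphocytes and myelinating glia, so markers of other cells are given beside its result. The 17 T and NK cell genes had summed linear signals of 302 to 316 in HDAC3FF and 301 to 319 in HDAC3ΔIEC; their brightest, Cd3e and Cd247, had mean log2 signals of 5.14 and 4.76 in the controls. The sums of 9 neuron and glia genes, 3 of them above the median of all genes, were 276 to 312 against 313 to 337. Surface colonocyte genes, 12 of 12 above that median, summed to 56812 to 63823 against 54849 to 63019, and 8 goblet cell genes to 38732 to 45165 against 38958 to 40622. Tuft cell genes summed to 512 to 874 against 448 to 719. Such sums are led by the brightest genes of a list and can hide changes of others. Of the 12 surface colonocyte genes, 4 read higher (33.3%, beside 8.45% of all genes) and 3 lower (25%, beside 7.7%) without overlap. Their differences ran from -2.00 to 0.69, those of the goblet cell genes from -1.15 to 0.21 and those of the tuft cell genes from -1.36 to 0.33. Of 12 enteroendocrine genes limma called 3 higher (Insl5, Ppy and Pyy), beside 0.369% of all genes, and 9 did not pass. All 12 had positive differences, and their sums were 2803 to 5494 in HDAC3FF and 9851 to 12611 in HDAC3ΔIEC. Myeloid genes, 3 of 15 above the median of all genes, summed to 604 to 679 against 496 to 561, with Cd14 and C1qa the brightest. Limma called 1 of the 15 lower (6.67%, beside 0.333% of all genes), C1qa at -1.71 ± 0.19. However, 8 of the 15 differences were positive and their median was 0.04. C1qb and C1qc, looked up after the values were seen, had 0.07 ± 0.10 and -0.11 ± 0.11, and Cd68 was higher without overlap at 0.51 ± 0.13. The part of these cells in the Mal result was not tested.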

How the data were processed

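The deposited values run from 2.27 to 13.55 and were taken as log2 signals. Per the submitters' processing notes, Affymetrix Power Tools was used; settings, background correction and normalization are not stated there. Of 24939 probe sets, 21105 name 1 gene and were used, 1254 name several genes and 2580 none. The probe set with the highest mean represented each gene. Values were compared as deposited with limma 3.58.1 in R 4.3.3 (lmFit, eBayes, 3.26 prior degrees of freedom, two-sided), adjusted by Benjamini-Hochberg over 19533 genes, and checked on simulated data. With 3 arrays per group, their number limits the precision.

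The 8 genes, the lists and the rules were chosen with earlier results of these data known. Named list genes are those called, at most 4 per list, or else the 2 with the smallest p; the brightest markers and the 5 genes closest to Mal were also named. Alternatives were an intensity trend, array weights, the replicate number as a block, quantile normalization, median centring, a filter on dim genes, the mean of all probe sets and omission of each array. Same-numbered arrays of the groups did not deviate together (correlations of -0.02, -0.07 and -0.20), so the numbers were not taken as pairs. Figures were drawn with matplotlib 3.10.9.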

Additional observations from a re-analysis of the deposited data

How the results depend on the processing

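The differences of the 8 genes moved by less than 1 SD between replicates under every alternative run except that of Myo1a, which was 0.19 with quantile normalization. The intensity trend alters only the spread and not these differences, so it was run over all genes but not listed for the 8. The replicate block, the filter on dim genes and the mean of all probe sets could not move these differences either. The groups are balanced over the replicate numbers, a filter leaves values unchanged and each of the 8 has 1 probe set. These 3 settings therefore say nothing on how stable the differences are. Mal was below 0 in all 12 alternatives, counting those that could not move the difference. Leaving out 1 array could not have turned its sign, since its groups did not overlap. With the replicate block 12 genes were called over all genes instead of 137. Array weights called 357 genes, an intensity trend 178, the filter on dim genes 190 of those kept and leaving out 1 array 13 to 430. Of the other sorting genes 3 were called; an intensity trend called 5, array weights 6, the filter on dim genes 6, the replicate block 2 and leaving out 1 array 1 to 9. For the genes named beyond the 8, to which the alternatives were extended after the data were seen, Slc9a3 was called in all 13, Anxa13 in 9, St3gal5 in 8 and Cmtm8 in 4, with directions kept. Rab8a was below 0 in 10 of 12 alternatives and Rab11a above 0 in 11 of 12, again counting those that could not move the differences. Signals below background are not marked in the deposited values.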

Other observations

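Probe sets that name several genes were left out of the results above. The 1 that names Ubr3 and Vamp2, the latter a vesicle SNARE, had a log2 difference of -0.23 ± 0.16 (SE), and the 1 that names Cmtm1 and Cmtm2a, MARVEL family genes, had 0.01 ± 0.08; neither passed limma's threshold over all probe sets (adjusted p = 0.716 and 0.981).

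Several apical membrane genes that did not pass the threshold had values without overlap between the groups, looked up after they were seen. The metalloprotease gene Mep1a read 11.67, 11.51 and 11.93 in HDAC3FF and 10.99, 10.87 and 10.35 in HDAC3ΔIEC (limma adjusted p = 0.0818). The anion exchanger gene Slc26a3 read 11.85, 11.80 and 11.91 against 11.49, 11.43 and 11.32 (limma adjusted p = 0.0819). The efflux pump gene Abcb1a lay on the other side, at 11.06, 11.12 and 11.36 against 11.63, 11.80 and 11.81 (limma adjusted p = 0.0823). Among the 30 cargo genes, 5 read higher (16.7%, beside 8.45% of all genes) and 7 lower (23.3%, beside 7.7%) without overlap.

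By Pearson's correlation over the 6 arrays the genes nearest to Mal were Thbs1, Gal3st2c, Fgfr2, Slc10a2 and Rasa4. Gal3st2c, a sulphotransferase gene of the galactose-3-O family, had a difference of -1.31 ± 0.18 (SE). A lower value in HDAC3ΔIEC follows largely from its choice by likeness to Mal, so nothing is read from it.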
